A study of Mus musculus with 2 samples.

Results

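Notch signalling was examined through 10 of its genes among the 32285 listed for each library: the receptors Notch1, Notch2 and Notch3, the ligands Dll1, Dll4, Jag1 and Jag2, and the target genes Hes1, Hey1 and Heyl. The genes were taken by symbol, as the named receptors, ligands and canonical targets of the pathway, and all 10 were listed and had counts. They were measured by single-nucleus RNA sequencing of a shin muscle, the tibialis anterior. The mice were males of 16 to 20 weeks that had chronic kidney disease and whose femoral artery had been ligated 5 days earlier. In AHRfl/fl mice, the source of 1 library, the aryl hydrocarbon receptor gene Ahr is floxed. The other library came from AHRmKO mice, where Cre fused to an oestrogen receptor, under the skeletal actin promoter of ACTA1, acts on floxed Ahr in muscle fibres. Both libraries carry the same strain label, a cross of AHRtm3.1Bra/J with Tg(ACTA1-cre/Esr1*)2Kesr/J, and the kidney disease and the ligation are shared by both groups. The number of animals in each library, the means of inducing kidney disease and the use of an inducing drug for the recombinase are not given in the sources used here. Each group is thus 1 library, so differences between them have no replicate check and no p-value is given. Because the promoter driving the recombinase belongs to muscle fibres, Ahr in satellite, endothelial, immune and connective tissue nuclei is not the stated target of the deletion.

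Notch receptors are cut inside the membrane when a ligand on a neighbouring cell binds them. The freed intracellular domain joins RBPJ in the nucleus and turns on transcriptional repressors of the Hes and Hey families. In skeletal muscle, Notch signalling is known to hold satellite cells, the stem cells that repair fibres, in an undifferentiated and quiescent state, with ligand on differentiating cells and fibres among its sources, and in vessels Dll4 and Jag1 act in arterial identity and in the recruitment of mural cells.

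Barcodes with 2000 or more unique molecular identifiers (UMIs, each standing for 1 captured RNA molecule) were kept, 19056 in the AHRfl/fl library with a median of 3803.5 UMIs and 9015 in the AHRmKO library with a median of 3596. Their median mitochondrial share was 0.97% and 2.66%, and the libraries shared 43 barcodes. Nuclei were assigned to classes by the UMIs of marker genes, and a class is named for its markers only (satellite-like, myocyte-like and so on, the suffix being dropped from here). In the order AHRfl/fl then AHRmKO there were 2659 and 1520 satellite nuclei (Pax7, Myf5 and other markers), 416 and 42 myocyte nuclei (Myog, Mymk, Mymx, of differentiating and fusing cells), 1516 and 1504 immature fibre nuclei (Myh3, Myh8 and others) and 1837 and 1032 mature fibre nuclei (Myh4, Myh1, Myh2 and others). Outside the muscle lineage there were 6382 and 2398 macrophage, 1703 and 714 fibroadipogenic, 183 and 176 endothelial, 47 and 19 mural (pericyte and smooth muscle) and 49 and 50 adipocyte nuclei. Each class carried its own list far above the level estimated for free RNA, which is defined below. Assignment by these same lists fixes this in advance, so it is not a check of the classes. The 6 satellite markers summed to 2341 and 2355 counts per 1000000 UMIs (CPM) in satellite nuclei, where free RNA was estimated to add 88.8 and 63.3. Cnn1 was at 0 in mural nuclei of both libraries and Cyp2e1 at 0 in adipocyte nuclei of the AHRfl/fl library. A further 3168 and 729 barcodes passed the markers of more than 1 lineage and were left out as mixed. Ahr itself stood at 40.4 and 42.4 CPM in satellite nuclei and 33.6 and 30.5 in immature fibre nuclei. Intervals for counting error, defined below, overlapped in both classes. In mature fibre nuclei Ahr was lower in the AHRmKO library, at 30.9 (27.7 to 34.4) and 21.4 (17.3 to 26.2). In macrophage (29.1 and 35.0) and fibroadipogenic nuclei (20.2 and 30.7) it was higher in the AHRmKO library, also without overlap. Reads at the 3′ end would lie outside the deleted stretch. Where the counted Ahr reads lie was not tested, so these levels do not check the labels.

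A level in what follows is the gene's CPM from counts summed over all nuclei of a class, and its bracketed interval is an exact Poisson interval at 95%. The intervals cover counting error alone, not the spread between animals or libraries. Levels depend on transcript length and priming, so they are compared between classes for 1 gene and not between genes. Free RNA is the RNA that leaks from damaged cells into all droplets, and its level for a gene is what it was estimated to add to a class. This is the gene's CPM in barcodes with 200 to under 500 UMIs times the estimated free RNA share of the kept barcodes. That share was 14.9% in the AHRfl/fl library and 15.3% in the AHRmKO library. In bulk sums such as these, fewer expressing nuclei and less RNA per nucleus cannot be told apart.

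The regions just upstream of Dll1, Jag1 and Notch3 are shown because the results that follow turn on these 3 genes: Dll1 and Jag1 differ between the libraries, and Notch3 is among the leading genes of satellite nuclei. Each is the 250 bases before a RefSeq start on GRCm38.p6, 5′ to 3′ on the gene's own strand, at chr17:15376933-15377182 for Dll1, chr2:137116521-137116770 for Jag1 and chr17:32166891-32167140 for Notch3, all on the minus strand. Capitals mark the letters CAGCTG, an E-box that reads the same on both strands and is of the kind bound by muscle bHLH factors.
Dll1: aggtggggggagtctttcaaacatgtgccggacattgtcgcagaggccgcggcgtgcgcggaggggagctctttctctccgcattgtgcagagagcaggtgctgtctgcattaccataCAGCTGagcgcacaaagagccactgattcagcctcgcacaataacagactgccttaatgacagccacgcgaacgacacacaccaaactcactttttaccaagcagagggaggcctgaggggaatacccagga
Jag1: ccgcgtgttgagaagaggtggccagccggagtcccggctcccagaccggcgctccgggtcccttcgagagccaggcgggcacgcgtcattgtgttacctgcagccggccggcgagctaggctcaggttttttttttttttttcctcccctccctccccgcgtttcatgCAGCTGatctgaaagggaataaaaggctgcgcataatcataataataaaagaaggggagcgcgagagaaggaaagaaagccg
Notch3: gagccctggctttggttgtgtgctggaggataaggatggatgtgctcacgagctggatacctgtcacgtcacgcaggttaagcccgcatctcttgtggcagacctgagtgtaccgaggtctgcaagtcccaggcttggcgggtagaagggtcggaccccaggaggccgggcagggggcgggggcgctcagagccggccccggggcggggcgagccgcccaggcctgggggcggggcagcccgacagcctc
The E-box started 132 bases before the Dll1 start and 82 bases before the Jag1 start. No copy lay in the window of Notch3, nor in those of Notch1, Notch2, Dll4 and Jag2. RefSeq holds another Dll1 start, whose window at chr17:15375824-15376073 held none. Of all 32851 such windows, 4271 held CAGCTG, and 7094 (21.6%) held TGGGAA on either strand, the core letters of an RBPJ site, which was in none of the windows matched for the 7 receptors and ligands. No window was read for the targets Hes1, Hey1 and Heyl. The window of Hey2, another gene of the Hey family, held these letters, starting 207 bases before its start. A match here is a description of letters and not a binding site.

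Notch1, Notch2 and Notch3 are single-pass receptors that differ in tissue distribution, and here each had a different set of leading classes. Notch1 (chr2:26457903-26516663, minus strand, GRCm38) was at 148 (141 to 155) CPM in satellite nuclei of the AHRfl/fl library and 205 (195 to 216) in those of the AHRmKO library. In endothelial nuclei, where it acts in vessel sprouting, it was at 139.5 (113 to 169.9) and 144 (119.7 to 171). Satellite and endothelial nuclei were thus the highest classes for Notch1 in the AHRfl/fl library, without separation between them, and in the AHRmKO library satellite nuclei stood above endothelial nuclei. Myocyte nuclei had 54.6 (44.4 to 66.4) and 135 (87.6 to 199.9), immature fibre nuclei 32.7 and 39.4, and mature fibre nuclei 21.7 and 32.3. Free RNA was estimated to add 14.3 and 7.15, and all 9 classes lay above that level in both libraries.

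Notch2 (chr3:98013527-98150361, plus strand), a receptor also known for roles in immune cells, had macrophage and satellite nuclei as its highest classes. It was at 315 (308 to 322) and 283 (273 to 293) in macrophage nuclei and at 283 and 298 in satellite nuclei. The order of macrophage over satellite nuclei held beyond counting error in the AHRfl/fl library only, and in the AHRmKO library satellite, macrophage and myocyte nuclei (233) were not separated. Endothelial nuclei had the lowest Notch2 of the 9 classes, at 70.5 and 39.6, against free RNA of 18.4 and 29.9.

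Notch3 (chr17:32120820-32166852, minus strand), a receptor of satellite cells and of pericytes and vascular smooth muscle, was at 821 (805 to 837) in AHRfl/fl satellite nuclei and 722 (703 to 741) in AHRmKO satellite nuclei. Mural nuclei had 761 (657 to 876; 192 UMIs in 47 nuclei) and 403 (277 to 565; 33 UMIs in 19 nuclei). Satellite markers summed to 527 and 159 CPM in those mural nuclei, and their part in the Notch3 level was not tested. Satellite and mural nuclei were not separated in the AHRfl/fl library, and in the AHRmKO library satellite nuclei stood above mural nuclei. Fibroadipogenic nuclei followed at 186 and 242, myocyte nuclei at 98.2 and 130.0, mature fibre nuclei at 86.5 and 64.4 and endothelial nuclei at 33.8 and 17.0, with free RNA at 15.3 and 25.6. At least 1 Notch3 UMI was found in 2235 of 2659 and 1201 of 1520 satellite nuclei, and in 635 of 6382 and 235 of 2398 macrophage nuclei, whose median depth was 3009 and 3241 UMIs against 4006 and 4023.5 in satellite nuclei. A transcript annotated on the opposite strand, Gm17276, had 8712 UMIs against 31545 for Notch3 over barcodes with 2000 or more UMIs. The genes of such a pair have separate counts, but strand use in the counting is not given in the sources used here. Whether reads of a gene entered the count of its partner was not tested. The same holds for 0610009E02Rik (1385 UMIs) against Notch1 (9631) and Gm14207 (24 UMIs) against Dll4 (193).

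Among the ligands, Dll1 (chr17:15367354-15376872, minus strand), a Delta-type activator that differentiating muscle cells present to their neighbours, was highest in myocyte nuclei. Its level there was 100.4 (86.4 to 116; 184 UMIs) in the AHRfl/fl library and 374 (291 to 473; 69 UMIs) in the AHRmKO library. Immature fibre nuclei had 46.6 and 123, satellite nuclei 35.0 and 80.4, and mature fibre nuclei 30.6 and 46.9. The order myocyte over immature fibre over satellite nuclei held beyond counting error in both libraries. Macrophage nuclei had 10.1 and 8.87 and fibroadipogenic nuclei 11.3 and 8.81, near free RNA at 6.89 and 4.21. 128 of 416 and 29 of 42 myocyte nuclei had a Dll1 UMI, and the 4 UMIs of AHRmKO mural nuclei all lay in 1 nucleus.

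Dll4 (chr2:119325784-119335962, plus strand), the Delta ligand of endothelial tip and arterial cells, was above free RNA in both libraries in endothelial nuclei alone of the 9 classes. It had 59.2 (42.7 to 80.0; 42 UMIs) and 92.7 (73.7 to 115; 82 UMIs) CPM there, in 29 of 183 and 49 of 176 nuclei. The other 8 classes had at most 0.55 in the AHRfl/fl library and at most 1.14 in the AHRmKO library. In myocyte, mural and adipocyte nuclei no Dll4 UMI was found in either library, which allows up to 1.64 and 16.2 in myocyte, 11.9 and 36.6 in mural, and 11.8 and 12.9 in adipocyte nuclei.

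Jag1 (chr2:137081456-137116644, minus strand), a Jagged ligand through which endothelial cells signal to mural cells, was lowest in the muscle classes past the satellite state. It was at 111 (28 UMIs) and 281 (23 UMIs) in mural, 90.2 and 147 in endothelial, 69.5 and 170.1 in fibroadipogenic, and 66.6 and 168 in adipocyte nuclei. In the AHRfl/fl library no neighbours in that order were separated, and in the AHRmKO library mural nuclei stood above fibroadipogenic nuclei, the next in order, while the other 3 were not separated from their neighbours. Macrophage nuclei had 16.6 and 42.0 and satellite nuclei 16.0 and 21.3. Mature fibre nuclei had 4.47 and 10.0, immature fibre nuclei 3.78 and 6.71, and myocyte nuclei 2 UMIs in the AHRfl/fl library (1.09) and none in the other. Free RNA was estimated to add 2.54 and 3.76.

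Jag2 (chr12:112907819-112929776, minus strand), the other Jagged ligand, had the opposite placement in the muscle lineage. It was at 53.0 and 82.7 in immature fibre, 51.2 and 50.1 in mature fibre, 38.7 and 65.0 in myocyte and 17.4 and 29.6 in satellite nuclei. Endothelial nuclei had 50.7 and 53.1, a level not separated from those of the fibre and myocyte nuclei in the AHRfl/fl library. Macrophage and fibroadipogenic nuclei stood at 6.20 and 6.62 in the AHRfl/fl library and at 3.60 and 5.47 in the AHRmKO library, against free RNA of 3.32 and 1.69.

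Of the targets, Heyl (chr4:123233556-123249875, plus strand), a bHLH repressor of the Hey family, had its highest level in satellite nuclei in both libraries, at 158 and 127. Mural nuclei were at 83.2 (21 UMIs) and 36.6 (3 UMIs), and fibroadipogenic nuclei at 35.4 and 36.8. Mural nuclei stood above fibroadipogenic nuclei in the AHRfl/fl library, and these classes were not separated in the AHRmKO library. Myocyte nuclei had 19.1 and 16.2, and fibre nuclei were at 9.51 and 4.78 (immature) and 9.30 and 9.33 (mature), around free RNA at 6.94 and 3.76. Hes1 (chr16:30064384-30067796, plus strand), a bHLH repressor that many signals besides Notch can induce, was at 115 and 84.1 in satellite nuclei. It was more widely spread than Heyl, with 55.4 and 85.0 in fibroadipogenic and 60.6 and 32.8 in endothelial nuclei, and was above free RNA in both libraries in 8 classes against 4 for Heyl. Hey1 (chr3:8663359-8667256, minus strand), another member of the Hey family, was sparse. It was at 12.7 and 10.2 in endothelial nuclei (9 UMIs in each library) and 8.76 and 9.64 in satellite nuclei, with free RNA at 1.14 and 0.31. Over the 10 genes and 9 classes, 61 of 90 pairs had intervals above the level estimated for free RNA in both libraries.

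**Figure D1:**
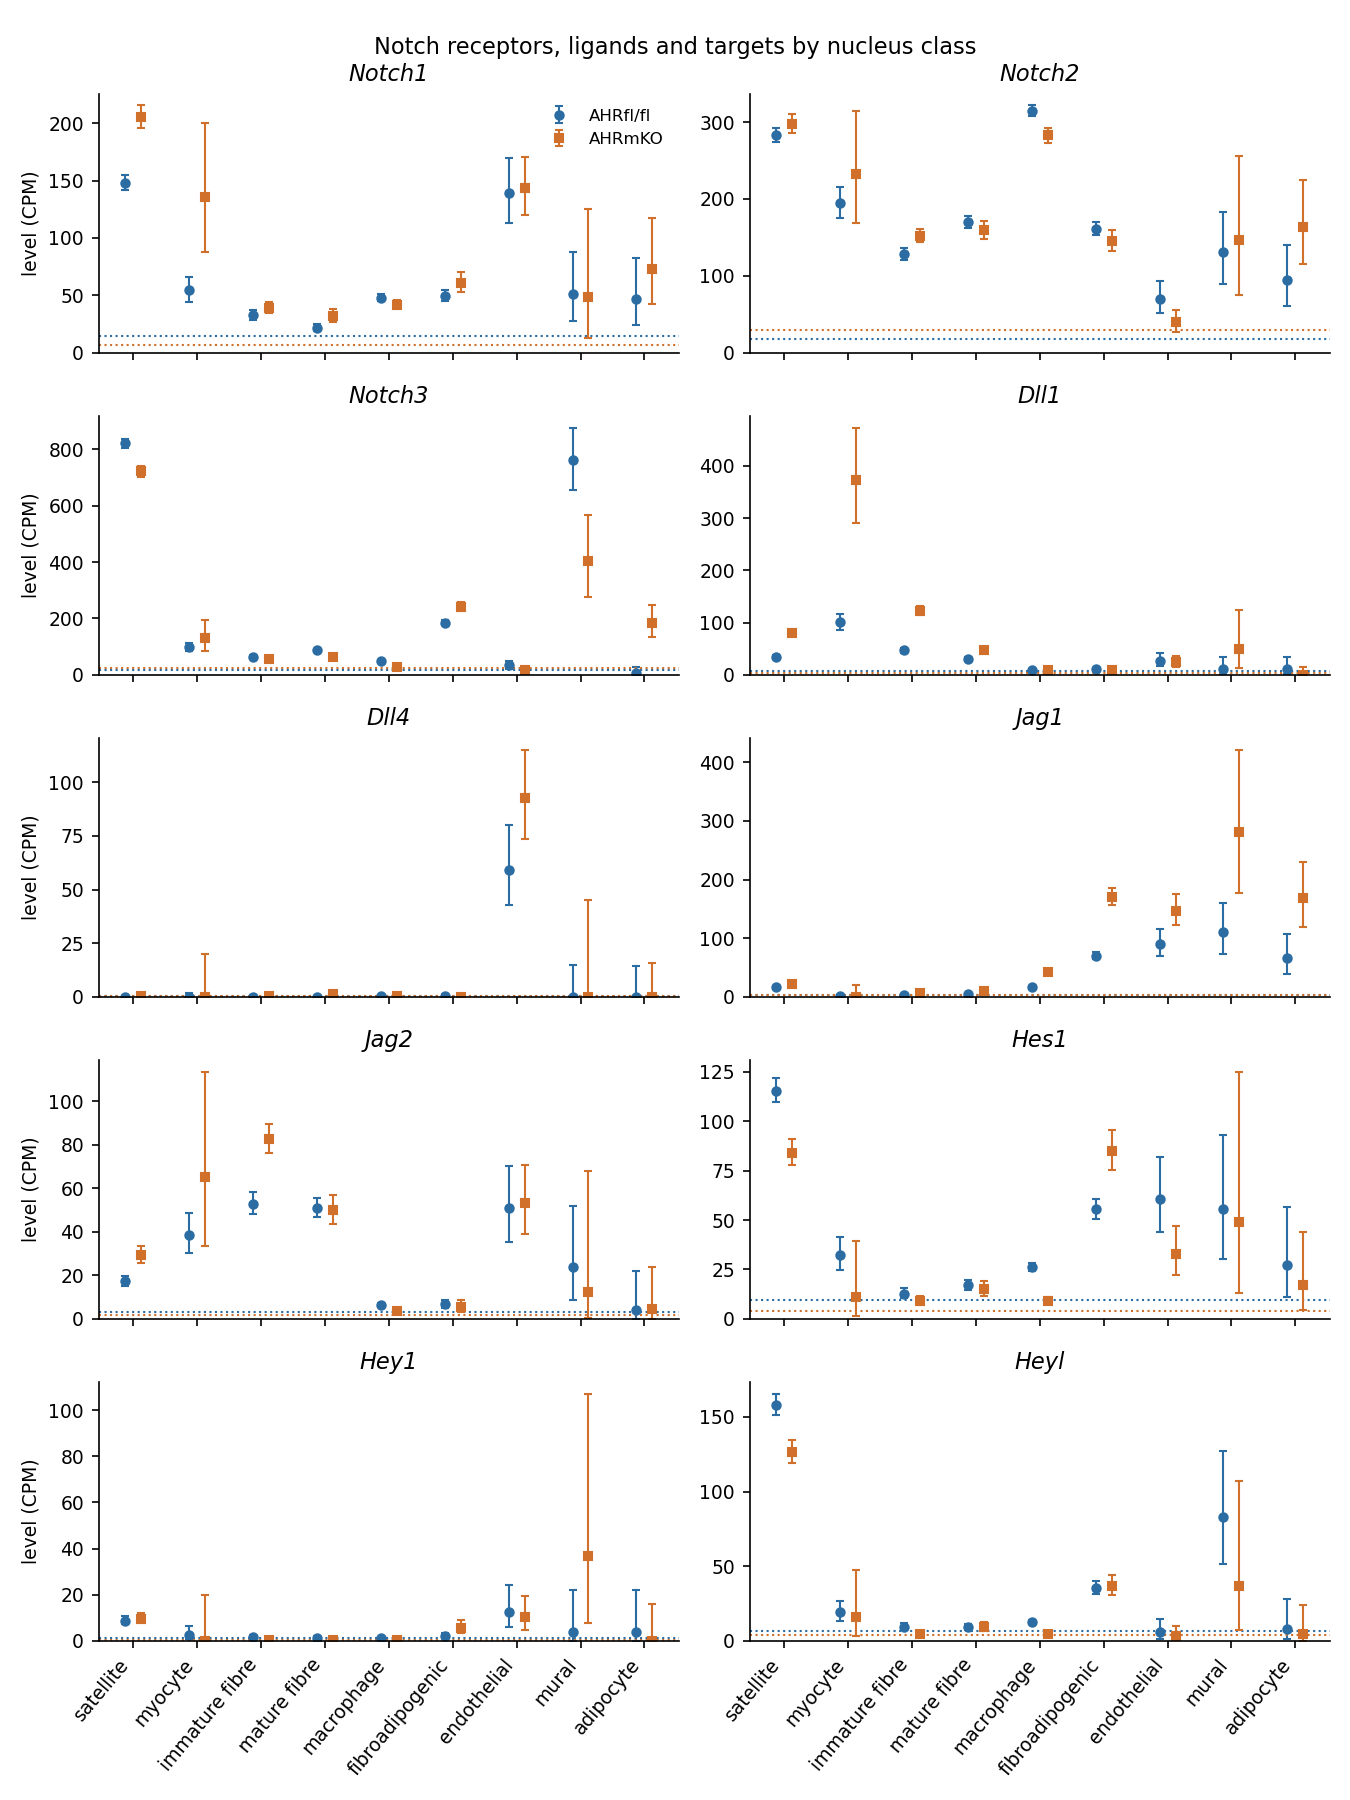
Each panel plots 1 gene in CPM (vertical axis) over the 9 nucleus classes, with 1 point per library, bars for the exact Poisson interval at 95% and dotted lines for free RNA. Notch3 and Heyl are highest in satellite nuclei in both libraries, Dll1 in myocyte nuclei and Dll4 in endothelial nuclei.

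Myocyte nuclei were next compared with non-cycling satellite nuclei, those with a Pax7 UMI and at most 2 UMIs of 12 cycling genes (1408 and 625 nuclei), to follow the pathway from the stem cell to the differentiating cell within each library. Notch3, Heyl and Hes1 were lower and Dll1 and Jag2 higher in both libraries. A gene is counted as higher or lower past 2-fold where both sums together hold 10 or more UMIs, and these are counts over nuclei of 1 library, not a test. Of 9 members tested in each library, 2 were higher in both libraries (Dll1 and Jag2), where 7.51% and 9.34% of all genes were higher. 6 were lower in the AHRfl/fl library and 3 in the AHRmKO library, where 15.8% and 13.2% of all genes were lower.

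Notch3 went from 943 in non-cycling satellite nuclei to 98.2 in myocyte nuclei in the AHRfl/fl library, a log2 ratio of -3.26 (-3.49 to -3.05), and from 794 to 130.0 in the AHRmKO library, -2.61 (-3.26 to -2.03). Heyl went from 205 to 19.1 and from 157 to 16.2 (35 and 3 UMIs in myocyte nuclei), and Hes1 from 119.6 to 32.2 and from 89.0 to 10.8 (59 and 2 UMIs). The intervals of the log2 ratio lay below 0 for these 3 genes in both libraries, with -5.56 to -1.72 for Heyl and -6.09 to -1.17 for Hes1 on the few AHRmKO counts. Notch1 was 0.35 times its satellite level in AHRfl/fl myocyte nuclei, and in the AHRmKO library its interval included no difference (-1.06 to 0.16). Notch2 was lower by less than 2-fold, with log2 ratios of -0.64 and -0.50.

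Dll1 was 3.07-fold higher in myocyte than in non-cycling satellite nuclei in the AHRfl/fl library (100.4 against 32.7; log2 1.62, 1.31 to 1.92) and 4.27-fold higher in the AHRmKO library (374 against 87.6; log2 2.09, 1.69 to 2.49). Jag2 was 2.15-fold and 2.70-fold higher (38.7 against 18.0, and 65.0 against 24.0). Jag1 ran the other way, with 2 UMIs in AHRfl/fl myocyte nuclei against 112 in satellite nuclei (log2 -4.18, -7.25 to -2.30), and with none against 57 in the AHRmKO library, where the depth of 42 nuclei cannot separate the 2 classes. The ligands of the pathway therefore did not move as 1 group across these classes.

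In immature fibre nuclei against the same satellite nuclei, 1 of 9 members tested was higher and 7 were lower in each library, the same genes in both, where 10.7% and 10.6% of all genes were higher and 21.9% and 23.6% lower. The 7 were all 3 receptors, all 3 targets and Jag1, and the 1 was Jag2, 2.94-fold and 3.44-fold higher. Heyl had log2 ratios of -4.43 and -5.04, Notch3 of -3.87 and -3.81, Hes1 of -3.22 and -3.30, Notch1 of -2.24 and -2.20, and Notch2 of -1.25 and -1.12. Dll1 kept a level above the satellite nuclei by 1.42-fold and 1.41-fold, with intervals above 1.

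Mature fibre nuclei were then compared with immature fibre nuclei. None of 9 members tested was higher or lower in the AHRfl/fl library, where 7.1% of all genes were higher and 4.76% lower, and in the AHRmKO library 1 of 8 was lower, where 11% were higher and 9.73% lower. That gene was Dll1, at 46.9 in mature and 123 in immature fibre nuclei of the AHRmKO library (log2 -1.39, -1.62 to -1.18). In the AHRfl/fl library the same ratio was -0.61 (-0.82 to -0.39). Dll1 was thus highest at the myocyte stage and lower in each later class in both libraries. Among the other members tested, log2 intervals excluded 0 in the AHRfl/fl library for Notch1 (-0.59), Notch2 (0.41), Notch3 (0.43) and Hes1 (0.41). In the AHRmKO library they did so for Jag2 (-0.72), Hes1 (0.73) and Heyl (0.97). All of these ratios were below 2-fold.

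**Figure D2:**
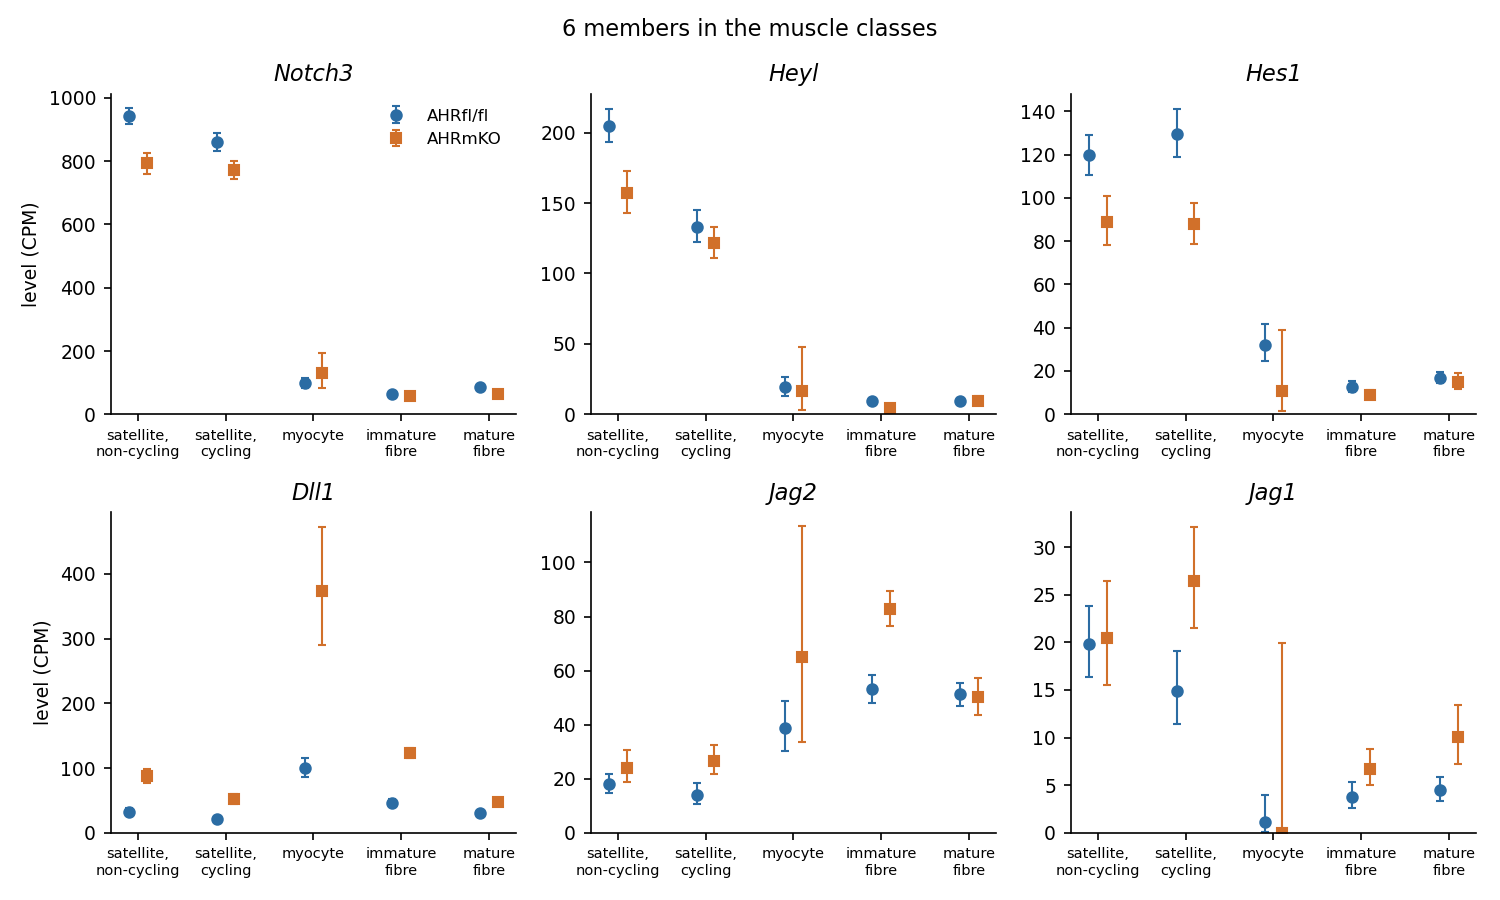
Levels of 6 genes in CPM (vertical axis) across the muscle classes from satellite to mature fibre nuclei, 1 point per library, with exact Poisson intervals at 95%. Notch3, Heyl and Hes1 are highest in satellite nuclei, Dll1 peaks in myocyte nuclei, and Jag2 is higher in the fibre classes than in satellite nuclei.

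Satellite nuclei in the cell cycle were compared with those outside it, because Notch is known to act on the choice between quiescence and proliferation. Cycling nuclei had a Pax7 UMI and 5 or more UMIs of the cycling genes, which gave 708 and 626 nuclei with median depths of 5132 and 4902 UMIs, against 3669 and 3646 for the 1408 and 625 non-cycling nuclei. None of 9 members tested passed 2-fold the same way in both libraries, where 3.77% of all genes were higher and 1.56% lower in cycling nuclei. The differences that did lie outside counting error in both libraries were below 2-fold and concerned Heyl, Dll1 and Notch2, all lower in cycling nuclei.

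Heyl was at 205 in non-cycling and 133 in cycling nuclei of the AHRfl/fl library (log2 -0.62, -0.77 to -0.47) and at 157 and 122 in the AHRmKO library (-0.37, -0.56 to -0.18). Dll1 was at 32.7 and 21.5 (-0.61, -0.99 to -0.24) and at 87.6 and 52.1 (-0.75, -1.03 to -0.47), but the AHRmKO value was 0.63 with classes taken from clusters, and the AHRfl/fl value 0.03 with nuclei counted as cycling from 1 UMI. Marker lists of the later muscle classes were lower in cycling nuclei as well, from 231 to 187 and from 82.9 to 42.5 for myocyte and from 874 to 677 and from 364 to 225 for immature fibre markers, and their part in the Dll1 difference was not tested. Notch2 was at 303 and 263 and at 329.8 and 291, log2 ratios of -0.21 and -0.18. Over all barcodes with a Pax7 UMI, whatever their class, an alternative chosen after the data were seen, the Notch2 ratios were -0.0051 and 0.048 and those of Heyl -0.43 and -0.03. The satellite marker list was lower in cycling nuclei too, from 2634 to 2157 and from 2757 to 2203 CPM, and its part in the Heyl difference was not tested. The target Heyl was thus lower in cycling nuclei of both libraries, by less than 2-fold, and the receptor Notch3 differed less: 943 and 861 (-0.13) in the AHRfl/fl library and 794 and 773 (-0.04) in the AHRmKO library.

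Notch1 was at 154 and 161 (log2 0.06) in the AHRfl/fl library and at 181 and 234 in the AHRmKO library (0.37, 0.21 to 0.53). Hes1 was at 119.6 and 129.7 (0.12) and at 89.0 and 87.9 (-0.02), so this target did not follow Heyl. Hey1, the sparsest target, was at 9.73 and 9.02 (-0.11) and at 7.54 and 12.96 (0.78, 0.02 to 1.59). Jag1, with log2 ratios of -0.41 and 0.37, and Jag2, with -0.35 and 0.15, had intervals that included no difference. Dll4 had too few UMIs in satellite nuclei to be compared.

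A further list held 49 genes, 42 of the Notch pathway and 7 tied to satellite cell quiescence. Of the 42, 35 had enough UMIs for this comparison, and 1 was higher and 1 lower in cycling satellite nuclei of both libraries, while 0 of 6 quiescence genes tested were called. Psen2, a catalytic presenilin of the enzyme that frees the receptor's intracellular domain, went from 30.6 to 12.4 and from 29.8 to 9.33. Neurl1b, a ubiquitin ligase acting on Notch ligands, went from 1.42 to 4.88 and from 1.08 to 4.41, on 3 to 20 UMIs per sum. Rbpj, the DNA-binding partner of the receptors, was at 216 and 221 and at 220.3 and 199.

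Macrophage and fibroadipogenic nuclei, split by the same cycling genes, gave 0 members of 8 and 0 of 9 past 2-fold in both libraries, where 4.06% and 3.64% of all genes were higher and 0.257% and 1.72% lower. In fibroadipogenic nuclei, mesenchymal progenitors of muscle, Notch1 was at 42.6 in non-cycling and 78.8 in cycling nuclei of the AHRfl/fl library and at 49.2 and 101 in the AHRmKO library (log2 0.89 and 1.04). Notch3 there was at 161 and 269 and at 215 and 311 (0.74 and 0.53). The satellite marker list in the same nuclei summed to 198 and 344 and to 95.4 and 207 CPM in non-cycling and cycling nuclei, and its part in these differences was not tested. In macrophage nuclei Notch3 was at 32.9 and 99.8 in the AHRfl/fl library and at 25.8 and 31.8 in the other, beside satellite markers at 139 and 256 and at 59.7 and 128.

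**Figure D3:**
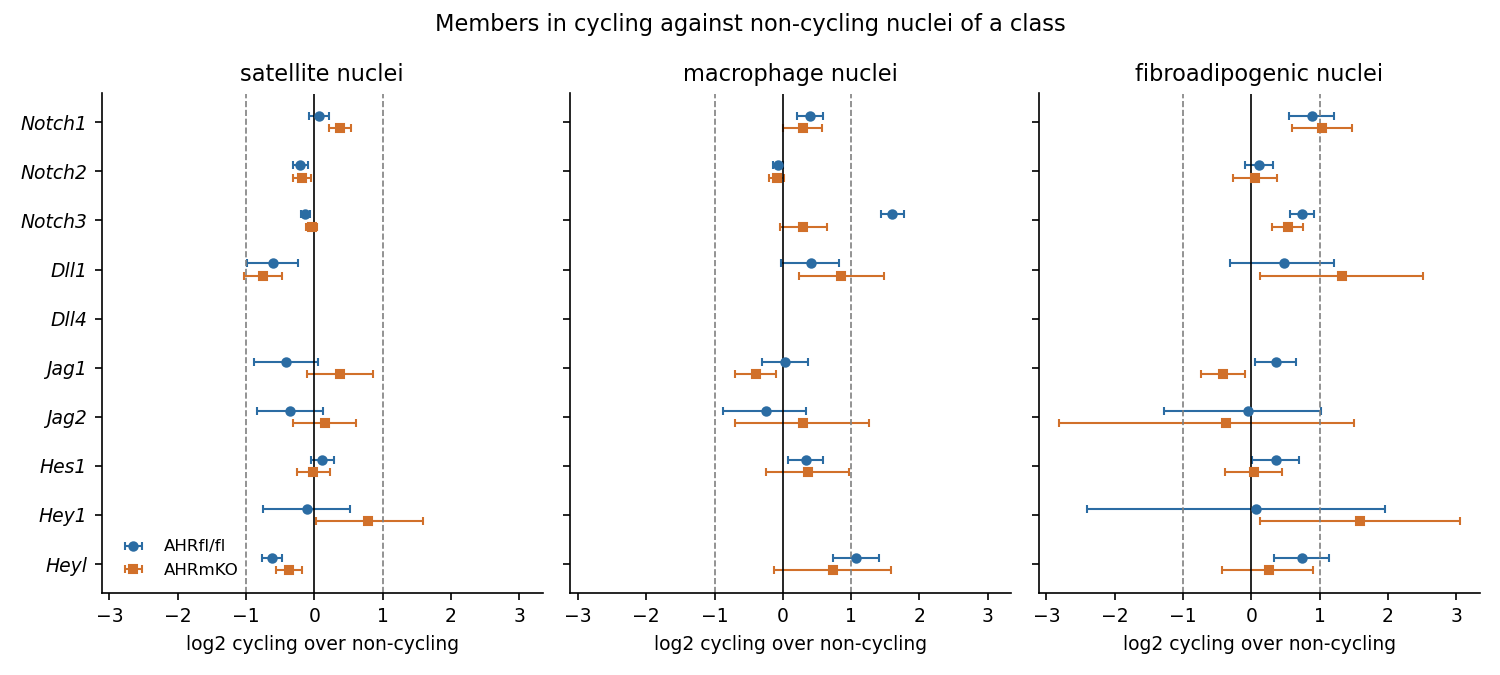
The horizontal axis gives the log2 ratio of CPM in cycling over non-cycling nuclei of satellite, macrophage and fibroadipogenic classes, 1 point per gene and library, with exact conditional binomial intervals at 95%. In satellite nuclei Heyl, Dll1 and Notch2 lie below 0 in both libraries, and Notch1 in fibroadipogenic nuclei lies above 0 in both.

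The libraries were then compared class by class, which is the comparison of AHRmKO with AHRfl/fl mice that the design holds, with 1 library on each side. Of 90 pairs of gene and class, 73 had 10 or more UMIs, and of these 11 were over 2-fold higher and 7 over 2-fold lower in the AHRmKO library. Most of the higher pairs belonged to 2 ligands, Dll1 in the muscle lineage and Jag1 mostly outside it. Over all genes, 4.75% (macrophage) to 15.5% (mural) were called higher and 14.5% (myocyte) to 24.6% (macrophage) lower. When nuclei of both libraries were clustered together without integration, macrophage, satellite, fibroadipogenic and both kinds of fibre nuclei lay mostly in clusters held nearly by 1 library. Macrophage clusters held 3287 AHRfl/fl and 5 AHRmKO nuclei, and 9 and 2094; satellite clusters held 1956 and 6, and 23 and 972; fibroadipogenic clusters held 1650 and 27, and 9 and 710. Immature fibre clusters held 1811 and 3, 68 and 1583, and 32 and 1072, and the largest mature fibre clusters of each library held 1525 and 0, and 0 and 603. A difference between the genotypes and one between the 2 library preparations cannot be told apart. The AHRmKO nuclei had the higher mitochondrial share in each of the 9 classes, from 2.06% to 5.53% as class medians against 0.50% to 2.03%, and its part in these differences was not tested.

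Dll1 was higher in the AHRmKO library in each of the 4 muscle classes by marker gates. It was 2.30-fold higher (2.03 to 2.61) in satellite nuclei, where 6.54% of all genes were called higher. It was 3.72-fold higher (2.78 to 4.93) in myocyte nuclei, where 11.7% were. It was 2.64-fold higher (2.35 to 2.99) in immature fibre nuclei, where 7.87% were, and 1.53-fold higher (1.28 to 1.83) in mature fibre nuclei. The leading genes of immature fibre nuclei differed between the libraries. The first 3 were Myh3, Myh8 and Mybph in the AHRmKO library and 4930512H18Rik, Myh8 and Sorbs2os in the AHRfl/fl library. The part of this difference in the Dll1 ratio was not tested. The satellite difference was present in non-cycling nuclei (32.7 and 87.6) and in cycling nuclei (21.5 and 52.1) alike, but with classes taken from clusters of nuclei the satellite log2 ratio was 0.20 and no longer past 2-fold, and the mature fibre ratio turned to -1.19. Outside the muscle lineage, Dll1 was at 10.1 and 8.87 in macrophage nuclei and at 26.8 and 23.7 in endothelial nuclei.

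Jag1 was over 2-fold higher in the AHRmKO library in 5 classes. It was 2.54-fold higher (2.22 to 2.90) in macrophage nuclei and 2.45-fold higher (2.17 to 2.76) in fibroadipogenic nuclei, where 6.74% of all genes were called higher. In mural, adipocyte and mature fibre nuclei it was 2.53-fold (1.39 to 4.55), 2.52-fold (1.39 to 4.75) and 2.24-fold (1.46 to 3.44) higher, where 15.5%, 13.3% and 9.47% of all genes were called higher. Adipocyte markers in the mature fibre nuclei summed to 28.7 and 149.7 CPM, and their part in the Jag1 difference there was not tested. The mature fibre log2 ratio of 1.16 was 0.97, no longer called, with a minimum of 4000 UMIs. The interval also lay above 1 in endothelial (1.63), satellite (1.34) and immature fibre nuclei (1.78). Jag2 stayed within 2-fold in the classes tested, in both directions: it was 1.70-fold higher (1.41 to 2.06) in satellite and 1.56-fold higher (1.38 to 1.77) in immature fibre nuclei, and 0.58 times (0.40 to 0.82) its AHRfl/fl level in macrophage nuclei. Fibroadipogenic markers in mural nuclei summed to 891 and 2025 CPM, so the mural value for Jag1 stands beside a higher level of another class's genes in the AHRmKO library, whose part was not tested. With classes taken from clusters the mural log2 ratio for Jag1 was -0.25, from a single mural cluster of 20 AHRfl/fl and 4 AHRmKO nuclei.

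Of the receptors, 2 pairs were called, Notch1 in myocyte and Notch3 in adipocyte nuclei. Notch1 was 1.39-fold higher (1.30 to 1.48) in AHRmKO satellite nuclei and 2.48-fold higher (1.53 to 3.88) in AHRmKO myocyte nuclei, the latter on 25 UMIs, a log2 ratio of 1.31. The myocyte ratio was no longer called with a minimum of 4000 UMIs (0.58) or with 5 marker UMIs asked for (0.77). In mature fibre nuclei Notch1 was 1.49-fold higher (1.20 to 1.84), a log2 ratio of 0.57 that was 1.78, past 2-fold, with free RNA subtracted. Its interval also lay above 1 in immature fibre (1.20) and fibroadipogenic nuclei (1.23) and below 1 in macrophage nuclei (0.87). Notch3 was 0.88 times (0.85 to 0.91) its AHRfl/fl level in satellite nuclei, 0.74 times (0.65 to 0.85) in mature fibre, 0.53 times (0.35 to 0.77) in mural and 0.56 times (0.49 to 0.63) in macrophage nuclei. In fibroadipogenic nuclei it was 1.30-fold higher (1.20 to 1.42; 1457 and 797 UMIs), with the same sign in 10 of 10 alternatives. The satellite marker list was lower in AHRmKO mural and macrophage nuclei too, at 527 and 159 CPM in mural and 169.6 and 82.4 CPM in macrophage nuclei, and its part was not tested. The macrophage level of Notch3 was 49.8 beside free RNA of 15.3 in the AHRfl/fl library and 27.7 beside free RNA of 25.6 in the AHRmKO library. Its macrophage log2 ratio of -0.85 ranged over the alternatives from -4.03 with free RNA subtracted to 0.13 with classes taken from clusters. The 23.6-fold Notch3 ratio in adipocyte nuclei (6.15 to 201) rested on 2 UMIs against 43, of which 33 came from 1 nucleus; without that nucleus the AHRmKO level was 46.5 against 7.84. With classes taken from clusters its log2 ratio was 0.56 in place of 4.56 and no longer past 2-fold.

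The targets were lower where they were called at all, except Hey1 in fibroadipogenic nuclei. In macrophage nuclei Hes1 was 0.34 times (0.28 to 0.42), Heyl 0.38 times (0.28 to 0.51) and Hey1 0.29 times (0.07 to 0.82) its AHRfl/fl level, where 24.6% of all genes were called lower. Macrophage levels of Hes1 were 26.2 and 8.96, above free RNA of 9.74 and 3.74 in both libraries. Those of Heyl were 12.6 and 4.83 beside free RNA of 6.94 and 3.76. The Heyl log2 ratio of -1.39 was -0.92, no longer called, with classes taken from clusters. The satellite marker list, as given above for Notch3, was lower in AHRmKO macrophage nuclei too. Its part in the Hes1 and Heyl differences was not tested. Hey1 in macrophage nuclei was at the level of free RNA in both libraries, 1.22 against 1.14 and 0.35 against 0.31 on 31 and 4 UMIs, and its log2 ratio of -1.79 was -0.22, no longer called, in barcodes with 4000 or more UMIs. In satellite nuclei, where the targets are well counted, Hes1 was 0.73 times (0.66 to 0.80) and Heyl 0.80 times (0.74 to 0.87) its AHRfl/fl level, both under 2-fold. Fibroadipogenic markers in satellite nuclei summed to 1281 and 830.0 CPM, beside free RNA of 606 and 172, and their part in the satellite differences was not tested. Hes1 went the other way in fibroadipogenic nuclei, 1.54-fold higher (1.32 to 1.79), as did Hey1 there, 2.83-fold (1.38 to 5.89) on 16 and 19 UMIs, which was no longer called with a minimum of 1000 UMIs (log2 ratio 0.73). The remaining calls, lower Hes1 in myocyte nuclei (59 and 2 UMIs), lower Hey1 in immature (13 and 4) and mature fibre nuclei (15 and 2) and lower Heyl in mural nuclei (21 and 3), had intervals that included no difference. In the classes of these 4 calls, 14.5%, 21.2%, 22% and 19.1% of all genes were called lower. Hey1 was near free RNA of 1.14 and 0.31 in both fibre classes. Its levels were 1.58 and 0.52 in immature and 1.37 and 0.46 in mature fibre nuclei. The part of free RNA in these Hey1 calls was not tested.

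The median log2 ratio over the members tested in a class was 0.14 in satellite, 0.40 in myocyte, 0.25 in immature fibre, -0.03 in mature fibre and -0.50 in macrophage nuclei, beside medians over all genes tested by the same rule of -0.15, -0.15, -0.16, -0.18 and -0.19, a gene at 0 in 1 library being ranked at that end. It was 0.30 in fibroadipogenic, -0.17 in endothelial, -0.13 in mural and 0.80 in adipocyte nuclei, beside -0.12, -0.07, -0.04 and -0.0017. In endothelial nuclei none of 9 members tested was called, where 6.42% of all genes were higher and 18% lower, and Dll4 was 1.57-fold higher (1.07 to 2.33) in the AHRmKO library, a log2 ratio of 0.65 that was -0.10 in barcodes with 4000 or more UMIs and 1.27, past 2-fold, with classes taken from clusters. Hes1 was 0.54 times (0.33 to 0.89) its AHRfl/fl level there, Notch2 0.56 times (0.35 to 0.88) and Notch3 0.50 times (0.24 to 0.996), all short of a call. Their log2 ratios ranged over the alternatives from -1.04 to -0.40 for Hes1, from -2.42 to -0.23 for Notch2 and from -2.66 to -0.43 for Notch3, which were past 2-fold in 1 of 10, 3 of 10 and 4 of 9. The AHRmKO level of Notch3, 17.0, lay under free RNA at 25.6.

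**Figure D4:**
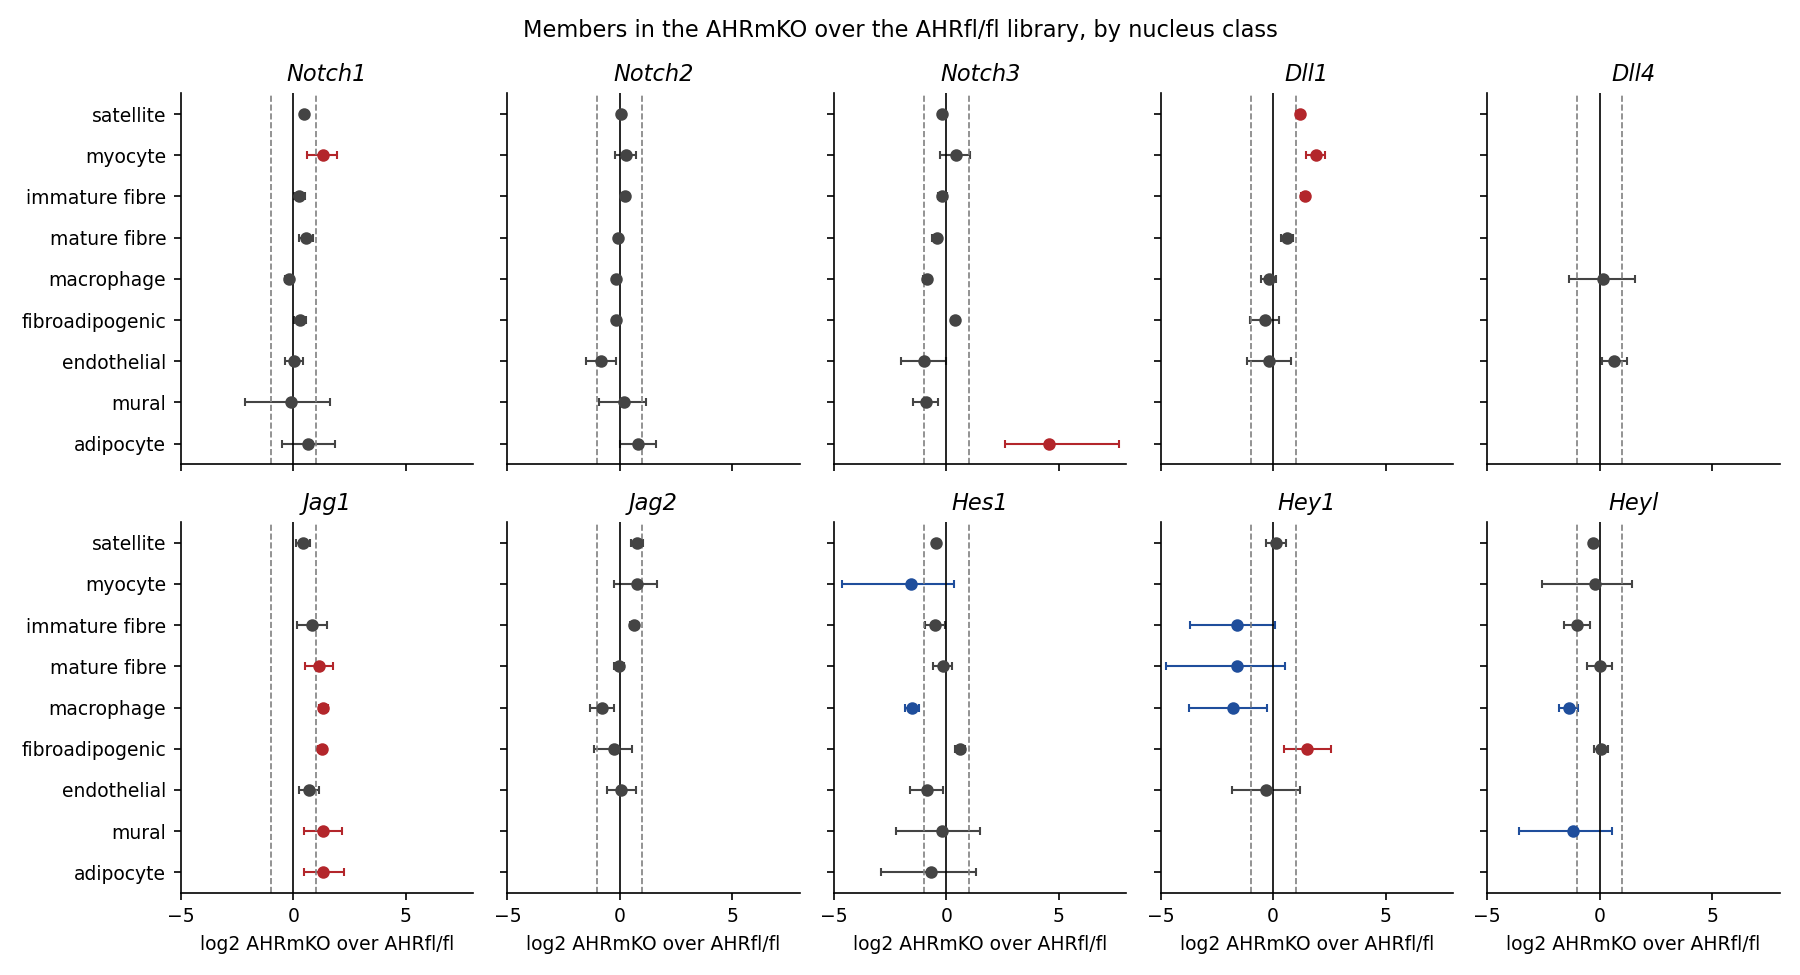
The horizontal axis gives the log2 ratio of CPM in the AHRmKO over the AHRfl/fl library, 1 panel per gene and 1 row per class, with exact conditional binomial intervals at 95%. Dll1 lies to the right in the muscle classes and Jag1 in every class plotted for it, while Hes1 and Heyl lie to the left in macrophage nuclei.

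Of the 42 other pathway genes, 39 were tested between the libraries in satellite nuclei, with 1 higher and 2 lower, where 6.54% of all genes were higher and 21.1% lower. Rfng, a glycosyltransferase that modifies Notch receptors, was at 7.03 and 19.5 there and was also called higher in myocyte and both kinds of fibre nuclei. Of the lower 2, Aph1a, a subunit gene of γ-secretase, was at 23.2 and 9.64, and Dlk1 on 12 and 1 UMIs (0.99 and 0.13 CPM). Of the 7 genes of satellite cell quiescence, all tested, Calcr, the calcitonin receptor (27.5 and 6.56), and Tenm4 (335 and 157) were called lower and Chrdl2 higher, on 6 and 11 UMIs. The other 4 were within 2-fold: the collagen genes Col5a1 (149.8 and 129) and Col5a3 (189 and 206), Spry1, a growth factor signalling inhibitor (44.7 and 35.6), and Cd34 (3.22 and 2.06). In macrophage nuclei 0 of 37 pathway genes tested were higher and 5 (13.5%) lower, and 0 of 6 quiescence genes were higher and 4 lower, where 4.75% of all genes were higher and 24.6% lower. Rbpj was at 603 and 293 there, and another γ-secretase gene, Psenen, was at 27.7 and 11.9. The other 3 of the pathway were Hes6 (34.4 and 16.0), Dlk2 (33 and 3 UMIs) and Nrarp (31 and 2 UMIs). Free RNA of Hes6 was at 19.6 and 4.46, and Dlk2 and Nrarp were not above free RNA in the AHRmKO library. The part of free RNA in these 3 calls was not tested. The quiescence genes were Col5a1 (33.8 and 12.5), Tenm4 (50.1 and 22.4), Spry1 (8.16 and 3.07) and Cd34 (102 and 19 UMIs). Rbpj in satellite nuclei was 251 and 231. Tenm4 also had lower levels in cycling satellite nuclei, 485 and 228 in non-cycling and cycling AHRfl/fl satellite nuclei and 220.0 and 130.4 in those of the AHRmKO library.

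Endothelial nuclei were split by short lists of arterial and venous markers, a nucleus needing 2 UMIs of a list and more of it than of the other, which gave 39 and 43 arterial and 83 and 81 venous nuclei. Dll4, Jag1 and Jag2 were over 2-fold higher in arterial nuclei of both libraries, 3 of 8 and 3 of 7 members tested, where 11.2% and 11.4% of all genes were higher and 12.5% and 13.5% lower. Dll4 was at 124 and 15.7 in arterial and venous nuclei of the AHRfl/fl library, 7.91-fold (log2 2.98, 1.54 to 4.75), and at 222 and 35.1 in the AHRmKO library, 6.32-fold (2.66, 1.79 to 3.61).

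Jag1 was at 201 and 72.2 (2.78-fold) and at 347 and 58.6 (5.93-fold), and Jag2 at 124 and 22.0 (5.65-fold) and at 106 and 25.8 (4.12-fold). Both Jagged ligands thus lay on the same side as Dll4 in these nuclei, with 7 to 72 UMIs per sum. Hey1 had 9 UMIs in arterial and none in venous nuclei of the AHRfl/fl library and 7 and 1 in the AHRmKO library, too few to be called. Notch1 was at 219 and 135 and at 178 and 129, under 2-fold. Notch4, the endothelial receptor of the family and not among the 10, was at 183 and 37.7 and at 203 and 82.0. Dll1 was lower in arterial nuclei of the AHRmKO library alone, on 3 and 13 UMIs, with an interval that included no difference.

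**Figure D5:**
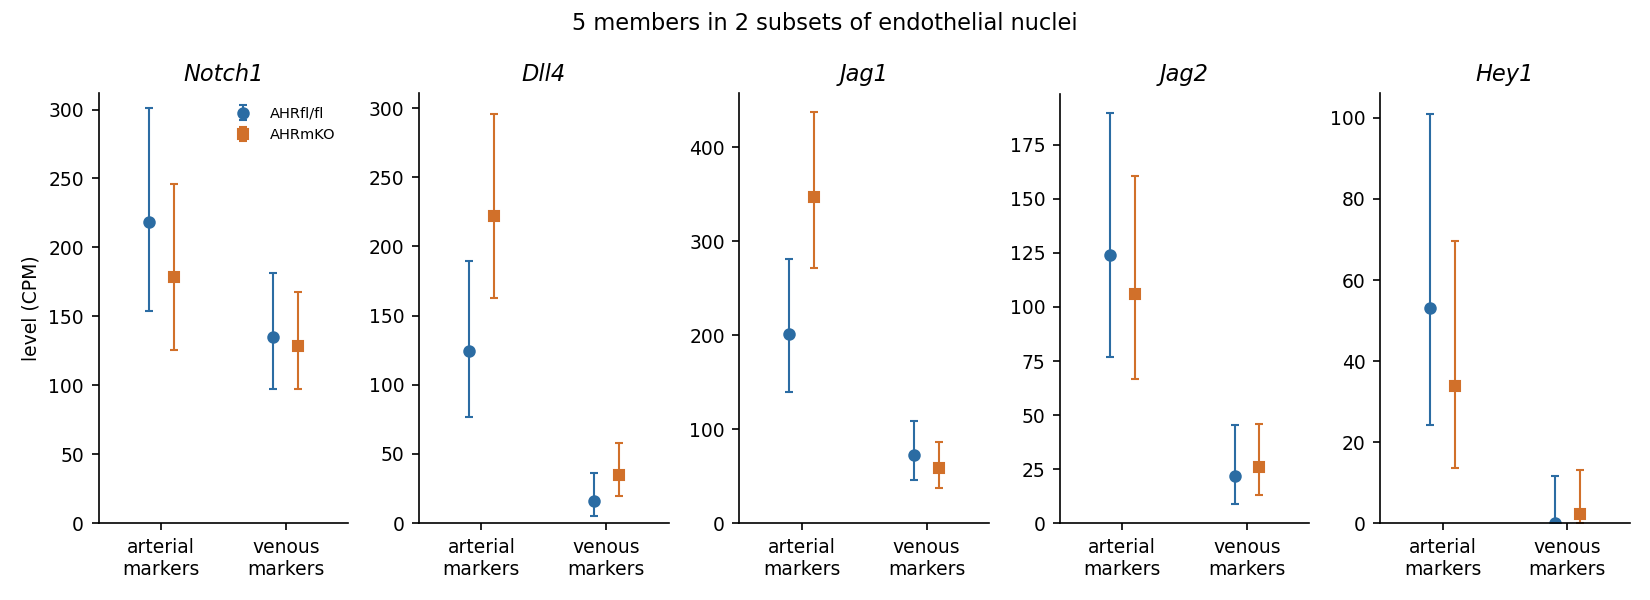
Levels of 5 genes in CPM (vertical axis) in endothelial nuclei with arterial or with venous markers, 1 point per library with exact Poisson intervals at 95%. Dll4, Jag1 and Jag2 are higher in the arterial nuclei of both libraries.

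Mural nuclei, the other class with high Notch3, were set against non-cycling satellite nuclei. Of 9 members tested in each library, 1 and 2 were higher and 6 and 3 lower, where 11.5% and 15% of all genes were higher and 13.4% and 12.1% lower. Jag1 was 5.60-fold and 13.7-fold higher in mural nuclei, and Notch1 and Notch2 were lower in both libraries, with log2 ratios of -1.58 and -1.89 for Notch1 and of -1.21 and -1.17 for Notch2. Heyl was lower as well (-1.30 and -2.10, the latter on 3 UMIs), while Notch3 was within 2-fold (-0.31 and -0.98), as was Jag2 (0.40 and -0.98). Dll1 and Hes1 were called lower in the AHRfl/fl library alone, and Hey1, on 1 and 3 mural UMIs, lower in the AHRfl/fl and higher in the AHRmKO library.

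The genes whose levels were most like each member were ranked by Pearson's r over 14 sums of class and library and 17621 genes, as a description only, since the sums of a library share its depth and preparation. Only sums of 50 or more nuclei were used. This left out mural nuclei of both libraries, AHRmKO myocyte nuclei and AHRfl/fl adipocyte nuclei. Notch3 was closest to Hs6st3 (0.97), Syt17 (0.94) and Dmrt2 (0.94), and Heyl to Kif26b (0.96), Vipr2 (0.96) and D630003M21Rik (0.96). Dll1 was closest to Adamts7 (0.98), Reep2 (0.97) and Slc44a2 (0.96), and Jag2 to Pik3c2b (0.97), Ccdc88c (0.97) and Col13a1 (0.96). Notch1 was closest to Atp2b4 (0.98), Notch2 to Mrpl28 (0.93), Dll4 to Hoxb6 (0.99), Jag1 to Shfl (0.96), Hes1 to Ptbp2 (0.93) and Hey1 to Celf5 (0.94).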

How the data were processed

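The deposited matrices hold unnormalised UMI counts of every gene in every barcode of both libraries. Per the submitters' processing notes, Cell Ranger 7.0.1 and mm10 were used, while the matrix headers name a Cell Ranger 4 format; the annotation, intron counting and strand use are not given in the sources used here. Nuclei came from the 10x Genomics 3′ HT chemistry, per the labels.

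Barcodes with 2000 or more UMIs were kept, 59.3% and 38.5% of all 151788328 and 113737134 UMIs. Free RNA made up an estimated 14.9% and 15.3% of their UMIs, read from fibre markers in macrophage nuclei. A nucleus took the class whose marker share, after free RNA was taken off, was highest at 0.3 or more of the class's reference level, with 3 or more UMIs from 2 or more markers. It was mixed, and treated as a doublet, where another lineage passed the same gate above 0.5 of the top level. Mural nuclei also needed 2 UMIs of 5 core genes, a choice made after the markers were seen. Between 0.2 and 0.4 of the reference level lay 1300 and 662 barcodes. The counts of a class in a library were added up and divided by that class's total, as counts per 1000000 UMIs (CPM). Ratios carry exact conditional binomial intervals at 95%, and a zero allows up to 3 counts. A side at 0 enters a call with that floor and can only be called lower.

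The members, the 42 pathway genes, the 7 quiescence genes and the marker lists were chosen with earlier results of these data known. All members are named, genes of the pathway and quiescence lists past 2-fold the same way in both libraries in cycling satellite nuclei, and up to 3 genes most like a member. Other genes of these 2 lists in the text were chosen after their values were seen, except that all called between the libraries in satellite and macrophage nuclei are named. Positions come from GENCODE M21, and promoter windows from RefSeq GRCm38.p6. Calls on simulated counts were checked. Python 3.11.15, numpy 2.4.6, scipy 1.17.1, pandas 2.3.3 and scanpy 1.11.5 were used. Alternatives covered depth, mitochondrial share, doublets, gate, clusters, scaling, free RNA, thinning and the cycling and Pax7 limits.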

Additional observations from a re-analysis of the deposited data

Results flagged for a closer look

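Jag1 in fibroadipogenic nuclei went in opposite directions with the cell cycle in the 2 libraries. It was at 65.4 CPM in non-cycling and 83.8 in cycling nuclei of the AHRfl/fl library (log2 0.36, 0.05 to 0.66) and at 184 and 138.7 in those of the AHRmKO library (-0.41, -0.74 to -0.09). The log2 ratio in the AHRmKO library minus that in the AHRfl/fl library was -0.766. The difference between the libraries was not tested, since each group is 1 library.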

How the results depend on the processing

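Of 725 recomputed gene ratios, 639 moved by less than their counting interval, 86 moved by more, and 30 changed sign, 9 of them with classes taken from clusters. Of the ratios past 2-fold, 1 changed sign: Jag1 in mural nuclei, at -0.25 against 1.34 with classes taken from clusters, where the mural cluster held 20 and 4 nuclei. Of 58 recomputed counts, 57 stayed within 1.5 times, and the count of pairs lower in the AHRmKO library went from 7 to 4 with nuclei thinned to 2000 UMIs, which leaves fewer UMIs. The count of higher pairs, 11, ranged from 10 to 15, and that of cycling calls among members in satellite nuclei stayed at 0. The cycling ratios and counts of macrophage and fibroadipogenic nuclei were not recomputed. Dll1 in satellite nuclei lost its call with cluster classes (log2 0.20), and 9 of 10 alternatives kept it. Notch1 in myocyte nuclei kept its call in 7 of 9. Cluster classes also turned Dll1 between the libraries in mature fibre nuclei to -1.19 from 0.62, and Heyl in immature fibre nuclei to 1.23 from -0.99. With cluster classes, Dll1 in cycling AHRmKO satellite nuclei went to 0.63 from -0.75. Notch3 in adipocyte nuclei lost its call with cluster classes. Median-of-ratios scaling used genes with 10 or more UMIs in each sum, whose median log2 ratio was 0.26 in myocyte and 0.36 in mural nuclei, against -0.15 and -0.04 over all genes tested. The count of pairs above free RNA, 61, ranged from 53 to 65 and was not recomputed under median-of-ratios scaling or free RNA subtraction. No paired analysis was possible because each group is 1 library, and none could be left out. Hey1 and the mural, adipocyte and AHRmKO myocyte sums are limited by depth.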
